A study of Mus musculus with 18 samples.

Results

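*Ccl2*, *Ccl7*, *Ccl12* and *Ccl8* encode small secreted proteins that draw monocytes and other leukocytes to a tissue. They are 4 of the 20298 genes in the expression table and were chosen by their symbols, with earlier results of these data known. RNA was sequenced from 6 groups of 3 libraries, made from C57BL/6 mice that were either WT or DKI. In DKI mice the N-domains of both *Stat5a* and *Stat5b* are mutated by knockin, so that STAT5 forms dimers but not tetramers. The mutations are present in every cell of the animal. All groups began as Ly6C+ CCR2+ monocytes enriched from bone marrow by negative selection. The day 0 groups were untreated, and the monocyte-derived cells (MDCs) of the day 3 and day 6 groups were cultured for 3 or 6 days with 20 ng/mL GM-CSF, a cytokine that signals through STAT5. The age of the mice and the number pooled per library are not given in the sources used here. The design states 3 independent experiments, and the libraries of each group are called 1, 2 and 3 here by the replicate numbers in their labels.

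The depth was estimated at 29.5 M to 43.0 M reads per library. The tissue is given as liver in the sample labels and as bone marrow in the series design and the study's methods. Expression is given as RPKM, the reads of a gene divided by its length and by the mapped reads of the library. The 5 hepatocyte markers summed to at most 0.047 RPKM in any library, with *Alb* (albumin) at 0 in all 18, and *Ly6c2*, a marker of classical monocytes, was between 953 and 1760 RPKM in the day 0 libraries. The day 0 libraries also held 8 neutrophil marker genes at a sum of 1560 to 4660 RPKM. Of these, *S100a8* was at 599 to 1720 RPKM and *S100a9* at 409 to 1870 RPKM. *Ly6g* was at 1.14 to 3.15 RPKM, and the others were at most 463 RPKM (*Ngp*). Library 1 of each of the 4 MDC groups carries an earlier year in its name than the other 14 libraries, which are called the later-year libraries here.

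CC chemokines bind receptors coupled to G proteins and form gradients on the matrix around the cells that secrete them. CCL2 (also called MCP-1), CCL7 (MCP-3) and CCL12 (MCP-5) are ligands of CCR2, the receptor that lets Ly6C-high monocytes leave the bone marrow and enter inflamed tissue. CCL7 also acts on CCR1 and CCR3, and mouse CCL8 has been described as a ligand of CCR8. Monocytes, macrophages and stromal cells make these chemokines after inflammatory stimuli, mainly through NF-kappaB, AP-1 and interferon-activated factors.

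The 4 genes lie on the + strand of chromosome 11 within 81.2 kb (RefSeq positions, mouse build GRCm38.p6, whose primary coordinates are those of mm10). *Ccl2* (Entrez gene 20296) spans 82035577 to 82037452, *Ccl7* (20306) spans 82045712 to 82047525, *Ccl12* (20293) spans 82101845 to 82103399 and *Ccl8* (20307) spans 82115185 to 82116799. *Ccl11*, which encodes the eosinophil attractant eotaxin, lies between *Ccl7* and *Ccl12*, from 82057832 to 82062955. *Ccl1* follows on the other strand from 82176666 to 82179812. The longest stretch of identical bases shared by any pair of the 4 transcripts is 23 bases, between *Ccl2* and *Ccl7*, and the read length is not given in the sources used here.

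DKI MDCs exceeded WT MDCs at all 4 genes on both days of culture, by 19.3 to 279.6 fold within the same-numbered pairs of libraries. The groups did not overlap for *Ccl2*, *Ccl7* and *Ccl12*, whereas they overlapped for *Ccl8*. The share of all genes without such overlap is not given here, so this only describes the values. On day 0, the highest value of the other 3 genes in any library was 10.8 RPKM (*Ccl7*), whereas *Ccl2* was at 61.98 RPKM or more. RNA from whole cultures was measured, so more cells of a type and more RNA per cell cannot be told apart.

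**Figure D1:**
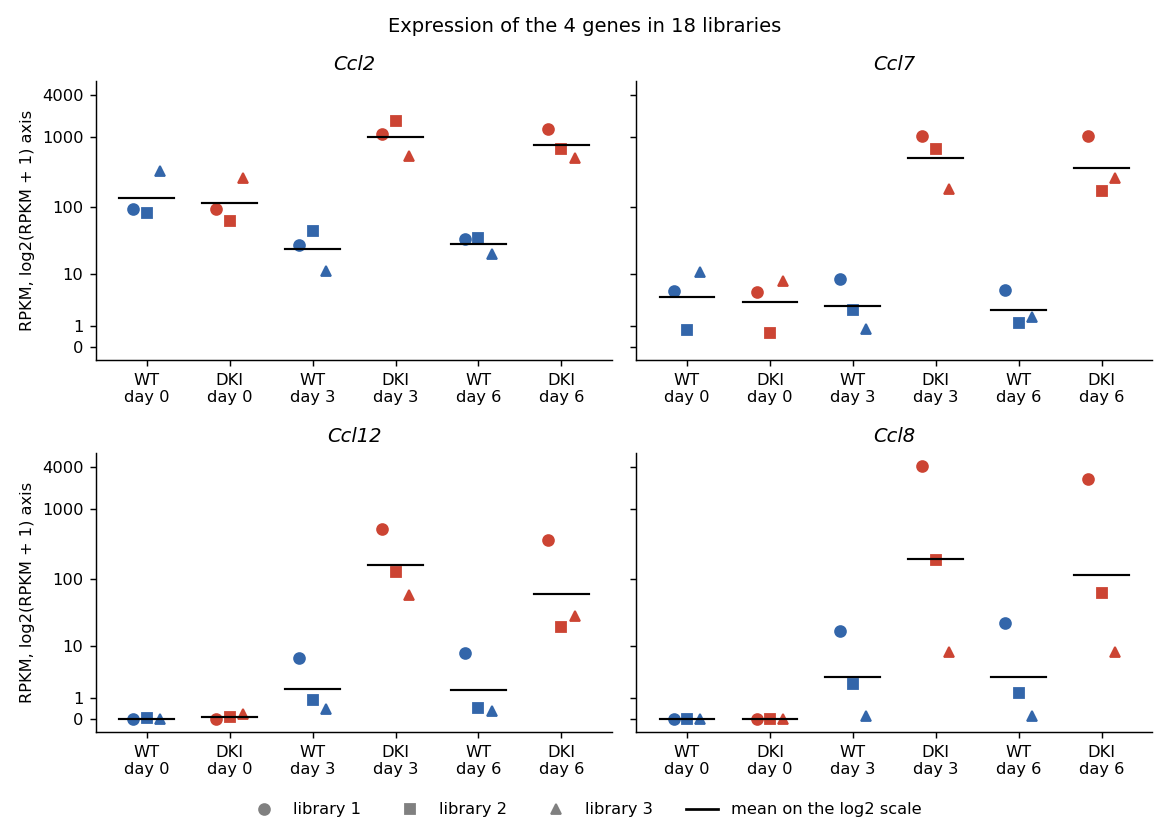
RPKM of each gene in every library on a log2(RPKM + 1) axis, by genotype and day; symbols give the library number and the bar gives the mean of the 3 log2 values. The red day 3 and day 6 points of *Ccl2*, *Ccl7* and *Ccl12* all lie above the blue points of the same day, whereas library 3 of DKI lies below library 1 of WT for *Ccl8*.

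Untreated monocytes held *Ccl2* transcripts and few or none of the other 3. WT libraries 1, 2 and 3 held *Ccl2* at 94.6, 80.9 and 329 RPKM, and the corresponding DKI libraries at 94.1, 61.98 and 263 RPKM. Library 3 was the highest in both genotypes, and the groups overlapped. For *Ccl7* the WT values were 5.44, 0.797 and 10.8 RPKM and the DKI values 5.17, 0.607 and 7.78 RPKM, with library 3 again the highest. *Ccl12* was listed at 0 in 3 of the 6 libraries, and the others held an estimated total of 1 read in WT and 5 reads in DKI. *Ccl8* was at 0 in all 6 libraries, where a count of 0 allows up to 3 reads, or 0.137 to 0.199 RPKM by library (counting error only).

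Genotypes were compared on the scale of log2(RPKM + 1) with limma, over the genes with a mean above 2 RPKM in at least 1 of the groups compared. A gene was called where the fold exceeded 1.5 and the p adjusted by the Benjamini-Hochberg method was under 0.05. On day 0, 0% of the 9179 genes fitted were called (44 had an unadjusted p under 0.05). *Ccl2* and *Ccl7* passed the filter, with log2 differences of −0.24 (95% interval −1.98 to 1.51) and −0.22 (−2.38 to 1.95) in DKI against WT. With the replicate number as a block, the intervals were −0.455 to −0.017 and −0.460 to 0.027. Neither gene was called with it (adjusted p = 0.99988 for both by limma). Both were lower in DKI in each same-numbered pair, at 0.719 to 0.995 of WT.

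*Ccl2* was the most abundant of the 4 genes in 10 of the 12 MDC libraries. On day 3 the values of libraries 1, 2 and 3 were 27.9, 45.3 and 11.1 RPKM in WT MDCs and 1095, 1706 and 529 RPKM in DKI MDCs. The lowest DKI library was above the highest WT library by more than 10 fold, and library 3 was the lowest in both genotypes. On day 6 the WT values were 33.9, 35.5 and 20.3 RPKM and the DKI values 1284, 682 and 499.7 RPKM, again without overlap. The ratio of DKI to WT within pairs was 39.2, 37.7 and 47.5 on day 3 and 37.9, 19.3 and 24.6 on day 6.

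The log2 difference of *Ccl2* was 5.30 on day 3 (standard error 0.61, adjusted p = 0.00953 by limma) and 4.66 on day 6 (standard error 0.40, adjusted p = 0.00673). The background on day 3 was 3.21% of genes called higher and 4.21% called lower in DKI, of 9740 fitted. On day 6 it was 2.72% higher and 4.82% lower, of 9842 fitted, so 36.1% of the calls of that day were higher in DKI, against 53.1% when each library was centred on its median. The median log2 difference over all genes fitted was −0.11 on day 3 and −0.17 on day 6. Against this background 3 of the 4 chemokine genes were called on day 3 and 2 of the 4 on day 6, all higher in DKI. In the later-year libraries alone, *Ccl2* differed by 5.33 on day 3 with an adjusted p of 0.0527, and by 4.39 on day 6 with an adjusted p of 0.0461.

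*Ccl7* had the largest genotype difference of the 4 genes on both days in mean log2(RPKM + 1), although not on day 3 without DKI library 3 (7.73, against 7.78 for *Ccl8*). Within the day 3 pairs, the ratio of *Ccl8* was above that of *Ccl7* in pair 1 and below it in pairs 2 and 3. The 3 WT libraries held 8.49, 2.42 and 0.854 RPKM on day 3, and 5.53, 1.22 and 1.73 RPKM on day 6. The 3 DKI libraries held 1023, 677 and 182 RPKM on day 3, and 1023, 171.5 and 264 RPKM on day 6. The lowest DKI value was thus above the highest WT value by more than 10 fold on each day, and in DKI library 1 the gene ranked 44th of all genes on day 3 and 45th on day 6. Within pairs the ratio of DKI to WT was 120.5, 279.6 and 213.6 on day 3 and 184.9, 140.4 and 152.4 on day 6. The log2 difference was 7.0 on day 3 (standard error 0.81, adjusted p = 0.00966 by limma) and 6.72 on day 6 (standard error 0.72, adjusted p = 0.00952). These were the 3rd and 2nd largest increases of all genes fitted on the respective days. In the later-year libraries alone they were 7.13 (adjusted p = 0.0265) and 6.44 (adjusted p = 0.0167).

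**Figure D2:**
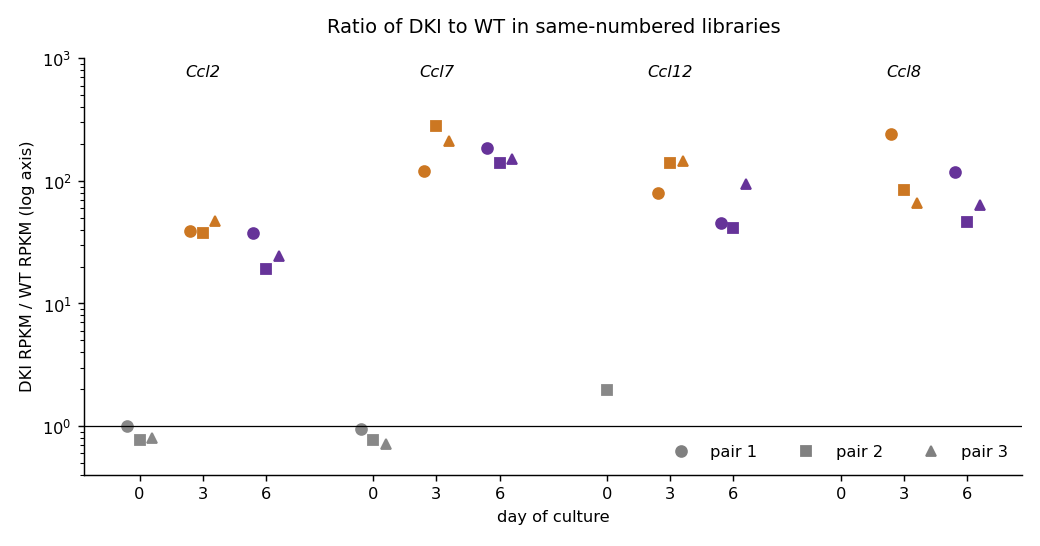
RPKM in DKI divided by RPKM in WT for each same-numbered pair of libraries (symbols), by gene and day, on a log axis; a ratio with a WT value of 0 is left out, so *Ccl12* has 1 ratio and *Ccl8* none on day 0. The day 3 and day 6 ratios lie between 19.3 and 279.6, and the day 0 ratios of *Ccl2* and *Ccl7* lie between 0.719 and 0.995.

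*Ccl12* was detected in every MDC library of both genotypes. The 3 WT libraries held 6.56, 0.892 and 0.406 RPKM on day 3, and 8.0, 0.478 and 0.308 RPKM on day 6. The WT values of libraries 2 and 3 rest on an estimated 5 to 18 reads each. The 3 DKI libraries held 520, 126 and 59.4 RPKM on day 3, and 364, 19.8 and 29.1 RPKM on day 6. Library 1 was the highest in each of the 4 groups, and no DKI value reached down to a WT value. The ratios within pairs were 79.2, 140.9 and 146.3 on day 3 and 45.6, 41.5 and 94.5 on day 6.

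The log2 difference of *Ccl12* was 5.87 on day 3 (standard error 0.93, adjusted p = 0.0207 by limma). The call was lost without WT library 2 (adjusted p = 0.0793), WT library 3 (adjusted p = 0.0715) or the filter on RPKM (adjusted p = 0.0529). On day 6 the difference was 4.56 (standard error 1.24), and it was not called without the pairing (adjusted p = 0.0720, 95% interval 1.57 to 7.55), except with all 18 libraries in the fit (adjusted p = 0.00766) or in the later-year libraries alone. Without DKI library 1 of day 6 it was 3.27. With the replicate number as a block it was called (standard error 0.31, adjusted p = 0.0124). In the later-year libraries alone it was called on both days, at 5.75 (adjusted p = 0.0205) and 4.17 (adjusted p = 0.0392).

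*Ccl8* was the most variable of the 4 genes between libraries of a group. The 3 WT libraries held 17.3, 2.24 and 0.122 RPKM on day 3, and 22.8, 1.37 and 0.129 RPKM on day 6, and the values of library 3 rest on an estimated 2 reads each. The 3 DKI libraries held 4156, 189 and 8.10 RPKM on day 3, and 2687, 62.9 and 8.25 RPKM on day 6. Both genotypes had the same order of libraries on both days, with library 1 the highest and library 3 the lowest. DKI library 3 was below WT library 1, so the genotypes overlapped, although DKI exceeded WT by 240.1, 84.3 and 66.6 fold within the day 3 pairs and by 118.1, 46.0 and 63.9 fold within the day 6 pairs. In DKI library 1 of day 3, *Ccl8* was the 8th highest of all genes per length.

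The log2 difference of *Ccl8* was 5.57 on day 3 (standard error 2.21, 95% interval 0.26 to 10.9) and 4.87 on day 6 (standard error 2.15, 95% interval −0.30 to 10.04). Neither was called without the pairing (adjusted p = 0.173 and 0.195 by limma), and without DKI library 1 of the day they were 3.36 and 2.61. With the replicate block the adjusted p was 0.0509 on day 3 and 0.0411 on day 6, so *Ccl8* was called on day 6. In the later-year libraries alone the differences were 4.45 (adjusted p = 0.191) and 3.89 (adjusted p = 0.190). With both the block and the later-year libraries alone, a setting added after the data had been seen, all 4 genes were called on both days, *Ccl8* with an adjusted p of 0.0363 on day 3 and 0.0252 on day 6. In this setting 1046 of 9723 genes fitted were called on day 3 and 406 of 9800 on day 6.

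**Figure D3:**
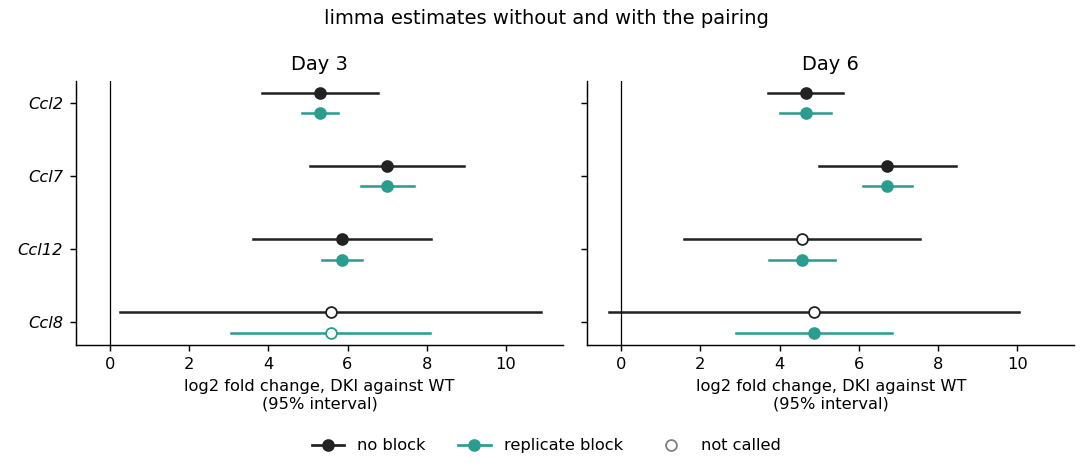
Log2 difference of each gene in DKI against WT on day 3 and day 6 from limma, with its 95% interval, without (black) and with (green) the replicate number as a block; open symbols were not called. The estimates are the same in both fits and the intervals of the block fit are narrower, that of *Ccl12* on day 6 shrinking from 1.57 to 7.55 to 3.73 to 5.40.

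From day 0 to day 3 the genes took different courses in the genotypes. In WT cells *Ccl2* fell by 2.44 on the log2 scale (standard error 0.65, adjusted p = 0.0203 by limma) and the groups did not overlap. This call was lost without WT library 3 of day 3 (adjusted p = 0.0635). *Ccl7* differed by −0.39 (95% interval −2.31 to 1.53), *Ccl12* by 1.42 (adjusted p = 0.0881) and *Ccl8* by 2.02 (adjusted p = 0.105), none of them called. *Ccl8* was called without WT library 3 of day 3 (2.94, adjusted p = 0.0242). With a pseudocount of 0.1, *Ccl12* (3.73, adjusted p = 0.0207) and *Ccl8* (4.38, adjusted p = 0.0436) were called. Of the 9938 genes fitted in WT, 20.3% were called higher on day 3 and 22.8% lower.

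In DKI cells all 4 genes rose from day 0 to day 3, where 13.1% of the 9922 genes fitted were called higher and 21.1% lower. Of those calls, 38.2% were higher, against 51.8% with each library centred on its median. *Ccl2* rose by 3.10 (standard error 0.63, adjusted p = 0.0124 by limma), *Ccl7* by 6.83 (standard error 0.83, adjusted p = 0.00280), *Ccl12* by 7.19 (standard error 0.72, adjusted p = 0.00171) and *Ccl8* by 7.59 (standard error 1.97, adjusted p = 0.0264). These log2 values depend on the pseudocount of 1 for the pair of genes near 0 on day 0. Set against 3 reads in the same-numbered library of day 0, *Ccl8* was at least 27180-fold, 1382-fold and 40.7-fold higher in DKI libraries 1, 2 and 3 of day 3. By the same measure it was at least 122.7-fold and 16.1-fold higher in WT libraries 1 and 2, whereas WT library 3 lay below the level of 3 reads. The call of *Ccl8* was lost without DKI library 1, 2 or 3 of day 0 (adjusted p = 0.0717, 0.0766 and 0.0727) or DKI library 2 of day 3 (adjusted p = 0.0613), and without the filter on RPKM (adjusted p = 0.0565).

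The change from day 0 to day 3 differed between the genotypes for 3 of the 4 genes in a test of the difference itself, where 1.2% of the 10212 genes fitted were called with the greater log2 change in DKI and 1.7% with the lesser. The change in DKI exceeded that in WT by 5.53 for *Ccl2* (standard error 1.01, adjusted p = 0.0169 by limma), 7.22 for *Ccl7* (standard error 1.30, adjusted p = 0.0158) and 5.76 for *Ccl12* (standard error 1.03, adjusted p = 0.0156). The value for *Ccl8* was 5.57 (standard error 2.43, adjusted p = 0.296, 95% interval 0.21 to 10.9), and it was called without DKI library 3 of day 3 (7.78, adjusted p = 0.0395). *Ccl2* lost its call without DKI library 2 of day 0 (adjusted p = 0.0528), and with the later-year libraries alone (5.56, adjusted p = 0.0625). *Ccl12* lost it with all 18 libraries in the fit (adjusted p = 0.0505). These day 3 libraries also enter the comparisons of genotypes above.

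From day 3 to day 6 no gene was called in WT, in DKI or in the difference between them (0% of 9613, 9540 and 9985 genes by limma, with 722, 93 and 89 at an unadjusted p under 0.05). The 4 genes differed by −0.20 to 0.25 in WT and by −1.37 to −0.39 in DKI MDCs. *Ccl12* had the lowest value in DKI, −1.37 (95% interval −4.45 to 1.70), and it was lower on day 6 in each of the 3 same-numbered pairs, at 0.701, 0.158 and 0.490 of its day 3 level. *Ccl7* in DKI was at 0.999, 0.253 and 1.45 times its day 3 level in libraries 1, 2 and 3, which shows no common direction.

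Ordered by their mean log2 levels, the groups fell into different steps for each gene. For *Ccl2*, DKI day 3 and DKI day 6 overlapped and lay above day 0 of both genotypes, which overlapped each other and lay above WT day 3 and WT day 6. For *Ccl7*, DKI MDCs lay above the other 4 groups, whose neighbours in the order overlapped. For *Ccl12*, DKI MDCs lay above WT MDCs, and WT MDCs lay above both day 0 groups. The lowest of these WT values, 0.308 RPKM, rests on an estimated 5 reads, and the highest day 0 value, 0.189 RPKM, on 3. For *Ccl8*, each MDC group overlapped with its neighbour in the order, and the MDC values lay above the 0 listed on day 0. Those of WT library 3 (0.122 and 0.129 RPKM) were below the level that 3 reads give in any day 0 library.

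The mixture of the 4 transcripts changed with culture. The summed RPKM of the 4 genes was 81.7 to 339.6 in WT and 62.7 to 270.8 in DKI monocytes on day 0, and *Ccl2* made up 94.6% to 99.0% of it. On day 3 the sum was 12.5 to 60.3 RPKM in WT and 779 to 6794 RPKM in DKI MDCs, and on day 6 it was 22.5 to 70.2 RPKM in WT and 801 to 5358 RPKM in DKI. The 4 genes together thus held 0.183% to 1.57% of all RPKM in the DKI libraries of day 3, and 0.00286% to 0.0139% in the WT libraries of that day. *Ccl7* made up 15.1% to 25.1% of the sum in DKI and 4.77% to 14.1% in WT MDCs on day 3. On day 6 it made up 18.3% to 32.95% in DKI and 3.17% to 7.88% in WT, and the genotypes did not overlap on either day.

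The share of *Ccl8* went with the library number. It made up 28.7% of the sum in WT and 61.2% in DKI library 1 of day 3, and 32.5% and 50.2% in library 1 of day 6. In library 2 its share was 3.55% to 6.99%, and in library 3 it was 0.575% to 1.04%, across both genotypes and days. DKI library 1 was on each day the library in which *Ccl8*, not *Ccl2*, was the highest of the 4.

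**Figure D4:**
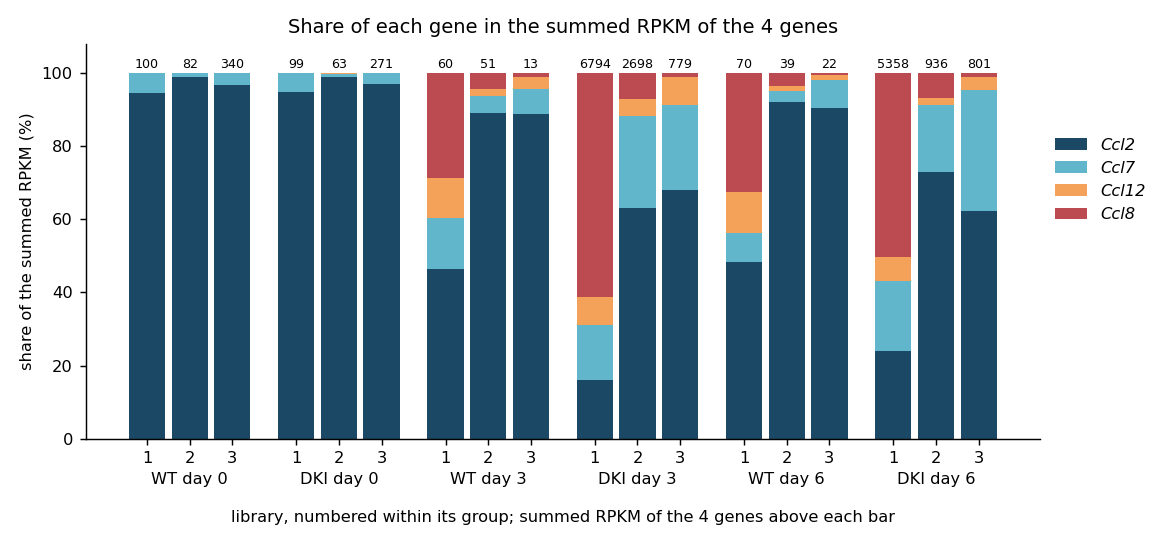
Share of each gene in the summed RPKM of the 4 genes in every library, with the sum in RPKM above each bar. *Ccl2* fills at least 94.6% of each day 0 bar, and *Ccl8* reaches 61.2% in DKI library 1 of day 3 but at most 1.04% in any library 3.

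Other transcripts also stood apart in DKI library 1. *Irf7*, which encodes an interferon-induced transcription factor, had 1423, 117 and 20.1 RPKM in DKI libraries 1, 2 and 3 of day 3, and 752, 43.9 and 59.97 RPKM on day 6. In WT MDCs it was between 1.03 and 10.5 RPKM. *Ccl5*, which encodes an attractant of T cells and monocytes, was at 1773, 14.6 and 7.42 RPKM in the DKI libraries of day 3. In WT libraries of that day it was at 102.5, 280.8 and 51.3 RPKM, with library 2 the highest. The order of the DKI libraries of day 3 was thus that of *Ccl7*, *Ccl12* and *Ccl8*, and not that of *Ccl2*, whose highest value was in library 2.

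Markers of cell types moved with the genotype as well. The 7 monocyte markers (among them *Ly6c2*, *Ccr2*, *Csf1r*, *Cd14*, *Fcgr1* and *Itgam*) summed to 823 to 1280 RPKM in WT and 1580 to 2930 RPKM in DKI MDCs on day 3, and to 651 to 1250 and 1440 to 2010 RPKM on day 6. Singly, *Ccr2* and *Fcgr1* overlapped between genotypes on day 3, and *Ly6c2*, *Ccr2*, *Csf1r*, *Cd14* and *Fcgr1* on day 6. *Csf1r*, *Fcgr1* and *Itgam* are also expressed by macrophages. The 6 macrophage markers listed (*Mrc1*, *Mertk*, *Adgre1*, *Stab1*, *Pf4* and *Fcgr4*) summed to 237 to 564 RPKM in WT and 1730 to 3730 RPKM in DKI MDCs on day 3, and to 296 to 519 and 1280 to 4150 RPKM on day 6. The 6 markers of monocyte-derived dendritic cells (*Ccl17*, *Ccl22*, *Cd209a*, *Ccr7*, *Irf4* and *Flt3*) summed to 4850 to 8960 RPKM in WT and 87.1 to 134 RPKM in DKI on day 3. On day 6 they summed to 3740 to 10100 RPKM in WT and 136 to 288 RPKM in DKI. B cell markers, at lower levels, summed to 0.231 to 0.955 RPKM in WT and 1.34 to 7.1 RPKM in DKI MDCs. These 4 sums separated the genotypes on both days, as the sum of the 4 chemokine genes did. Their part in the chemokine results was not tested.

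Neutrophil markers varied widely within groups. Their sum was 188, 4460 and 288 RPKM in WT and 1800, 2790 and 559 RPKM in DKI libraries of day 3. On day 6 it was 582, 593 and 20.5 RPKM in WT and 3060, 256 and 27.2 RPKM in DKI. The groups overlapped on both days. The 6 T and NK cell markers summed to at most 2.61 RPKM in MDCs except in DKI library 1, at 54.2 RPKM on day 3 and 60.7 RPKM on day 6, where *Cd4* held 53.2 and 59.4 RPKM of the sum. *Cd3e*, the T cell receptor subunit, was at most 0.114 RPKM in any MDC library. Stromal markers summed to at most 9.33 RPKM in MDCs except in WT library 1 and DKI library 1 of day 6 (10.1 and 32.3 RPKM), against 29.1 to 140 RPKM on day 0. Endothelial markers summed to at most 31.6 RPKM in MDCs, erythroid markers to at most 0.113 RPKM and those of mast cells, basophils and eosinophils to at most 124 RPKM, with overlap of the genotypes for these 3 lists.

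The genes most like each of the 4 were found by Pearson's r of log2(RPKM + 1) over the 18 libraries, among the 10417 genes with a group mean above 2 RPKM. The libraries share genotype, day and, by their names, year, so these values are descriptions. *Ccl2* was most like *Nt5dc2* (r = 0.938), *Mtmr10* (0.936), *Fer* (0.920), *Dio2* (0.913) and *Nynrin* (0.910), and *Ccl7* followed in 10th place (0.898). *Ccl7* was most like *Mmp27* (0.965), *Fer* (0.960), the macrophage transcription factor *Maf* (0.951), *Itsn1* (0.945) and the scavenger receptor *Stab1* (0.944). *Ccl12* was most like *Stab1* (0.985), *Gas6*, a bridging ligand for apoptotic cell uptake (0.9747), *Ms4a7* (0.962), *Ms4a14* (0.961) and *Maf* (0.959).

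*Ccl8* was most like *Tlr3*, a sensor of double-stranded RNA (0.948), the interferon-induced GTPase *Irgm2* (0.946), *Ccl12* (0.945), *Naa80* (0.944) and *Znfx1* (0.944). Among the 4, *Ccl12* and *Ccl8* were the most alike pair (0.945), followed by *Ccl7* and *Ccl12* (0.937), *Ccl2* and *Ccl7* (0.898), *Ccl7* and *Ccl8* (0.851), *Ccl2* and *Ccl12* (0.742) and *Ccl2* and *Ccl8* (0.658). *Ccl7* and *Ccl12*, which have *Ccl11* between them, were thus more alike than the neighbours *Ccl2* and *Ccl7*.

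The upstream sequences of the neighbours *Ccl12* and *Ccl8* are shown, since these 2 of the 4 genes were matched in the RefSeq promoter windows used here. Each is the 250 bases before the RefSeq start on the + strand of GRCm38.p6, with capitals at the only motif found.
*Ccl12*, chr11:82101595-82101844: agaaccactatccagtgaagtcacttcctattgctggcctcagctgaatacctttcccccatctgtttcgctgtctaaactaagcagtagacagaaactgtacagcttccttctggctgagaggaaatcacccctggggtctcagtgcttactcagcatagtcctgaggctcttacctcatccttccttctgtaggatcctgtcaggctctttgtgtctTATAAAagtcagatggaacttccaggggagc
*Ccl8*, chr11:82114935-82115184: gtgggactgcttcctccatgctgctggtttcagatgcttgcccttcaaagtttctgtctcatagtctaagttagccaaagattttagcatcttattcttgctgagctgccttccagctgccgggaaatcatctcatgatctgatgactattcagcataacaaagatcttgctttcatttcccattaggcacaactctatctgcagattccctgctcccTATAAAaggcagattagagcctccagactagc

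The capitals mark TATAAA, the core of the TATA box, whose first base lies 31 bases before the start of *Ccl12* and 32 bases before that of *Ccl8*. It occurs in 13.6% of the 32851 RefSeq windows of 300 bases (250 before to 50 after a start). Neither window held a match, on either strand, to the STAT motif GAS (TTCNNNGAA, in 8.3% of windows), to AP-1 (TGANTCA, in 7.81%), to the kappaB motif (in 0.411%) or to the interferon element ISRE (in 3.44%). This says only that these letters do not occur in these windows. No window of *Ccl2* or *Ccl7* was used here.

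The genes next to the 4 in the cluster stayed low. *Ccl11* was at most 0.142 RPKM in any library, and *Ccl1*, which encodes a ligand of CCR8, was at most 4.37 RPKM (WT library 2 of day 3) and otherwise below 1 RPKM. Neither passed the filter. *Ccl11* lies 22.3 kb from the start of *Ccl2*, between genes whose mean level in DKI MDCs of day 3 was 628 RPKM on one side (*Ccl7*) and 235 RPKM on the other (*Ccl12*).

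**Figure D5:**
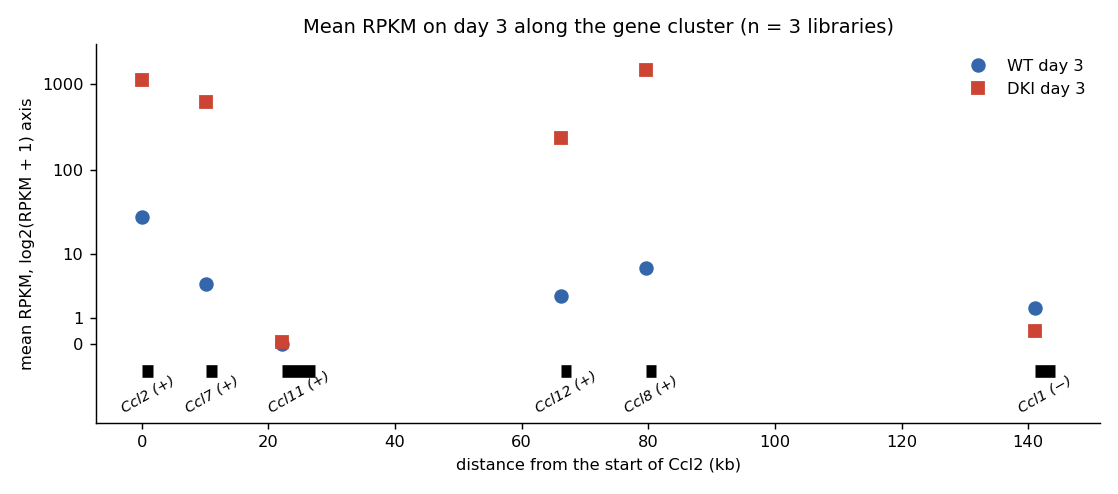
Mean RPKM of 3 libraries on day 3 in WT (circles) and DKI (squares) on a log2(RPKM + 1) axis, placed at the leftmost position of each gene in kb from the start of *Ccl2*; black blocks are the genes with their strand. *Ccl11* sits at 0.0088 (WT) and 0.063 RPKM (DKI), between *Ccl7* and *Ccl12*, which are at 628 and 235 RPKM in DKI.

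Of 7 receptors and scavenging receptors of these chemokines listed, 3 passed the filter, of which 1 was called higher in DKI on day 3 (3.21% of all genes) and none on day 6. WT monocytes of day 0 held *Ccr2* at 181.5, 333 and 515 RPKM, and DKI monocytes at 172, 339 and 584 RPKM. On day 3 the WT values were 180.5, 82.96 and 217 RPKM and the DKI values 32.5, 105.9 and 395 RPKM, where library 1 was the lowest although it had the most *Ccl8* and *Ccl12*. The difference of *Ccr2* between genotypes was −0.41 on day 3 (adjusted p = 0.801 by limma) and −0.50 on day 6 (adjusted p = 0.617).

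*Ccr1*, a receptor of CCL7, had 91.8, 85.8 and 107.3 RPKM in WT libraries and 145, 198 and 199 RPKM in DKI libraries of day 3, without overlap. It was called higher in DKI on day 3 (0.91, adjusted p = 0.0464 by limma), but not with the replicate block (adjusted p = 0.0701) nor on day 6 (0.89, adjusted p = 0.160). *Ccr3* was at most 2.69 RPKM, and *Ccr8*, *Ackr1* and *Ackr2*, the scavengers, at most 0.5 RPKM.

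Among 13 other CC chemokine ligands, 8 passed the filter, and on days 3 and 6 none was called higher and 2 were called lower in DKI, where 4.21% of all genes were lower on day 3 and 4.82% on day 6. The lower genes were *Ccl17* (−7.13 on day 3, adjusted p = 0.00477 by limma, and −6.73 on day 6, adjusted p = 0.00926) and *Ccl22* (−4.52, adjusted p = 0.0244, and −4.33, adjusted p = 0.00818), the CCR4 ligands of dendritic cells, which also stand on the list of dendritic cell markers. *Ccl3* and *Ccl4*, chemokines made by activated monocytes, differed by 0.04 and 0.08 on day 3 and were not called. *Ccl5* differed by −3.61 on day 6 (adjusted p = 0.0933). The median difference of the 8 was 0.06 on day 3 and −0.39 on day 6, against −0.11 and −0.17 over all genes.

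Of 12 genes for signalling downstream of CCR2 and for control of *Ccl2* mRNA, none was called higher and 2 were called lower in DKI on both days (4.21% and 4.82% of all genes). *Jak2*, a kinase of cytokine receptors, differed by −2.10 and −2.38 (adjusted p = 0.00477 and 0.0163 by limma), and *Pik3cg*, the PI3-kinase subunit coupled to chemokine receptors, by −1.48 and −1.63 (adjusted p = 0.0128 and 0.0192). *Zfp36* and *Zc3h12a*, whose products degrade cytokine mRNAs, were not called. The median of the 12 was −0.37 on day 3 and −0.59 on day 6, with the same medians over all genes of −0.11 and −0.17.

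Of 17 genes of transcription factors that act on promoters of this family, 2 were called lower in DKI on day 3 (4.21% of all genes) and none higher. These were *Rel* (−1.65, adjusted p = 0.0211 by limma) and *Stat5a* (−1.67, adjusted p = 0.0224), and *Fos* was called higher with the replicate block only (2.85, adjusted p = 0.0400, against 0.0804 without it). On day 6, *Fos* (3.03), *Jun* (1.31) and *Irf7* (5.13) were called higher and *Nfkb1* (−1.504), *Nfkbia* (−1.73), *Rel* (−2.01) and *Stat5a* (−1.68) lower, with adjusted p-values of 0.0143 to 0.0415, beside 2.72% of all genes higher and 4.82% lower. *Stat5a* was not called on day 6 with the block (adjusted p = 0.0516). *Fos* and *Jun* encode the subunits of AP-1, *Nfkb1* and *Rel* those of NF-kappaB, and *Nfkbia* its inhibitor. The median of the 17 was −0.10 on day 3 and −0.24 on day 6, against −0.11 and −0.17 over all genes.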

How the data were processed

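The authors aligned single-end reads to mm10 with Subread and counted them on RefSeq genes with featureCounts, and they deposited RPKM values in 1 column per library. Versions, strandedness and the treatment of reads matching several genes are not given in the sources used here. All 18 columns were used. Symbols come from RefSeq (20082 of 20298 Entrez identifiers matched, 216 not). The gene lists, markers and members were chosen with earlier results of these data known.

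Depth was estimated from 715 single-exon genes: of 1149 values below 4 reads, 1034 (90.0%, against 10% by chance) lay within 0.05 of a whole read at the depth chosen. Since 10% of the low values gave no whole read, counts were not rebuilt for the table and no count test was run. All 11 values of *Ccl8* and *Ccl12* under 50 reads lay within 0.2 of a whole read, at GENCODE exon lengths of 511 and 537 bp.

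log2(RPKM + 1) was fitted in R 4.3.3 with limma 3.58.1 (lmFit, eBayes with trend) on the libraries of the groups compared only, for genes whose mean exceeded 2 RPKM in 1 or more of these groups, in place of the edgeR test that the authors ran on counts. Fold changes on this scale are understated for low genes. Alternatives were a pseudocount of 0.1, no filter, all 18 libraries, the replicate number as a block, median centring, quantile normalization, each library left out, and the later-year libraries alone. Named genes are the 4 members, the 5 most alike by Pearson's r, genes of the listed groups and neighbours in the cluster, some of which are not reported here. *Irf7* and *Ccl5* of the lists were singled out by library after their values were seen. Same-numbered libraries deviated together from their group means (correlation over genes at least 0.163 on day 3, 0.338 on day 6 and 0.686 on day 0 between genotypes, and at least 0.125 between days 3 and 6), so the numbers pair these libraries, although the labels do not say that they were prepared together. Between days 0 and 3 they did not (lowest −0.208). p-values measure the spread between libraries. The fit was tested on simulated data. Python 3.11.15, numpy 2.4.6, pandas 2.3.3 and matplotlib 3.10.9 were used otherwise.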

Additional observations from a re-analysis of the deposited data

Results flagged for a closer look

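The change from day 0 to day 3 differed between genotypes for 3 genes in a test of the difference itself, where 1.2% of all genes had the greater change in DKI. On the log2 scale, the change in DKI exceeded that in WT by 5.53 for *Ccl2*, by 7.22 for *Ccl7* and by 5.76 for *Ccl12*. *Ccl2* fell in WT and rose in DKI cells, whereas *Ccl7* and *Ccl12* rose in DKI cells and were not called in WT, except *Ccl12* with a pseudocount of 0.1. The difference lost its call for *Ccl2* without DKI library 2 of day 0 (adjusted p = 0.0528 by limma) and in the later-year libraries alone (0.0625), and for *Ccl12* with all 18 libraries in the fit (0.0505).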

How the results depend on the processing

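Of 508 log2 differences of single genes recomputed under other settings, 453 kept their direction and their side of the threshold. The replicate block gave 4 genes called on day 6 and the block with the later-year libraries alone also 4, against 2 as reported, with 719 and 406 calls over the whole table against 742, and both all 18 libraries in the fit and the later-year libraries alone gave 3. For day 3 against day 0 in WT, a pseudocount of 0.1 gave 3 genes called (of 4431 over the table) and the replicate block 0, with or without library 1, against 1 of 4283 (*Ccl2*, adjusted p = 0.0599 with the block). In all libraries, the block changed no other call of the 4 genes than those given here and in the results. With the block in the later-year libraries alone, the rise of *Ccl2* from day 0 to day 3 in DKI was not called (2.88, adjusted p = 0.0853), nor was the difference of its change between genotypes (5.56, adjusted p = 0.0608). *Ccl12* lost its day 3 call without the filter on RPKM (adjusted p = 0.0529).

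With 1 library left out, values that were not called changed sign in these ranges. DKI against WT on day 0 was −0.83 to 0.40 for *Ccl2* and −0.98 to 0.51 for *Ccl7*. Day 3 against day 0 in WT was −1.15 to 0.21 for *Ccl7*. Day 6 against day 3 in WT was −0.28 to 0.68 for *Ccl2*, −0.74 to 0.44 for *Ccl7*, −0.97 to 0.67 for *Ccl12* and −1.31 to 1.07 for *Ccl8*. In DKI it was −1.24 to 0.049 for *Ccl7* and −2.99 to 1.49 for *Ccl8*, and the difference between genotypes of that change was −1.03 to 0.26 for *Ccl7* and −2.97 to 1.51 for *Ccl8*. The cause was not tested. *Ccl12* and *Ccl8* did not pass the filter in WT on day 3 without library 1 and gave no value there.

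Over the whole table, the calls on days 3 and 6 numbered 723 and 742, against 358 and 187 without the filter and 1359 and 1573 with all 18 libraries in the fit. In the later-year libraries alone they were 369 and 38, of which 44.2% and 68.4% were higher in DKI, against 43.3% and 36.1%. With 1 library left out they were 197 to 715 and 90 to 984. Values under 20 reads limit *Ccl8* and *Ccl12* in WT MDCs and on day 0.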
